A study of Rattus norvegicus with 10 samples.

Results

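The comparison here takes in the cue-tested rats alone: HC rats 9, 10 and 11 against LC rats 12, 13 and 14, which are 6 of the 10 rats of the series. They were chosen by the mark Cue in the name of each rat's deposited table. The other 4 tables (HC rats 15 and 16, LC rats 2 and 4) carry the mark NoCue. The sample labels give phenotype and rat number but not this mark, whose number of rats per phenotype fits the second cue test described in the methods of the study.

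All rats were male Sprague-Dawley rats, housed in pairs, that took cocaine by lever press (0.75 mg/kg in each infusion) and then spent 10 days in abstinence. High cue (HC) rats were those above the median of lever presses reinforced by the cocaine-paired cue in an earlier test, and low cue (LC) rats those below it. Over the whole series HC rats had also taken more cocaine than LC rats, so phenotype and intake cannot be told apart. The study does not give intake for the cue-tested rats alone. On day 27 the cue-tested rats met the cue again before tissue was taken, and the medial prefrontal cortex (mPFC; infralimbic, prelimbic and anterior cingulate cortex dissected together) of each rat gave 1 RNA-seq library.

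When a rat meets a cue that it has learned to pair with a drug, neurons in the prefrontal cortex that fire strongly switch on immediate early genes. Among these are genes for transcription factors of the Fos, Jun and Egr families, whose messenger RNAs appear within minutes and decay again. Other activity-induced genes include Arc, which acts at the synapse, the Nr4a nuclear receptors and Bdnf, a secreted neurotrophin.

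Exon reads per library ranged from 11790444 to 20145756 in HC rats and from 12151550 to 23342946 in LC rats. A gene's level is expressed in CPM (counts per 1000000 exon reads) after TMM scaling, which evens out overall shifts between libraries. HC rat 9 had the highest share of intron reads, 15.9% of its gene reads against 13.4 to 13.8% in the other 5 rats. A principal component analysis used the 500 genes of highest variance. Its leading component (30.5% of variance) put HC rats 9, 11 and 10 at −22.0, 0.53 and 18.0. LC rats 13, 14 and 12 were at −7.87, −0.06 and 11.4, so the groups were interleaved on it. On the next component (22.15% of variance) HC rats 9, 10 and 11 were at −7.03, −15.8 and −3.63. LC rats 12, 13 and 14 were at 18.1, 9.34 and −0.998 there, all above the HC rats. This order was not tested. Cortical neuron and glial markers were present in all 6 libraries: summed over 9 pan-neuronal genes the level was 7839 to 8467 CPM in HC and 8144 to 8922 CPM in LC rats. The striatal projection neuron markers summed to 438 to 478 CPM in HC and 447 to 476 CPM in LC rats, and the choroid plexus markers to 55.0 to 64.5 CPM in HC and 49.4 to 64.8 CPM in LC rats.

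No single gene separated HC from LC rats after adjustment. Of 14340 genes tested by edgeR's quasi-likelihood test, 0 had an adjusted p under 0.05 (smallest adjusted p = 1.00), and 423 (2.95%) had an unadjusted p under 0.05, 222 of them higher and 201 lower in HC. limma-voom gave 0 and DESeq2 gave 3 adjusted calls. The study scored a gene as different when −log10 of the unadjusted p reached 1.3 and the log2 fold change reached 0.58 in either direction. By this criterion 74 genes (0.516%) differed, 34 higher and 40 lower in HC. All 3 HC rats lay above all 3 LC rats in 597 genes and below them in 623, together 8.51% of the genes tested. An exact permutation test of 3 rats against 3 cannot give a two-sided p below 0.10. The p-values given below for single genes are therefore unadjusted values from edgeR's quasi-likelihood test and each gene stands as a description; the spread they rest on is that between rats.

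Immediate early transcription factors lay on the higher side in HC. All 14 tested members had a log2 fold change above 0, against 50.5% of all genes tested, and their median was 0.27 against 0.00 over all genes. An unadjusted p under 0.05 was found for 4 of them (Fosb, Fos, Egr4 and Egr2), all higher in HC, where the background is 1.55%, and for none in the other direction. The list was chosen with earlier results of these data known. Its members were measured in the same rats, so they are not independent of each other. Counts set against a background, here and for the lists below, are therefore descriptions and not tests. Between rats the list was highest in HC rat 11 and lowest in LC rat 14, and its median stayed between 0.22 and 0.32 when any 1 rat was left out. In bulk tissue, more cells with these RNAs and more RNA per cell cannot be told apart, and the source of the shift was not tested.

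Fosb, which encodes a Fos family partner of Jun proteins and the stable splice form deltaFosB, was at 82.5, 86.0 and 106.9 CPM in HC rats 9, 10 and 11, against 70.6, 50.3 and 71.2 CPM in LC rats 12, 13 and 14. All HC rats lay above all LC rats, and LC rat 13 was the lowest of the 6. The log2 fold change was 0.53 (SE 0.15, unadjusted p = 0.0081, edgeR's quasi-likelihood test), and it passed the unadjusted threshold whichever rat was left out. It was the only one of the 14 transcription factors without overlap between the groups (background 4.16% with HC higher).

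Fos, the founding member of the family, was at 67.8, 76.2 and 77.2 CPM in HC rats 9, 10 and 11, against 69.5, 55.8 and 54.6 CPM in LC rats 12, 13 and 14. The groups overlapped, because LC rat 12 lay above HC rat 9. The log2 fold change was 0.30 (SE 0.10, unadjusted p = 0.017, edgeR's quasi-likelihood test).

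Egr2, a zinc finger factor of the Egr family, was at 63.8, 63.7 and 87.2 CPM in HC rats 9, 10 and 11, against 69.4, 46.9 and 40.5 CPM in LC rats 12, 13 and 14, a log2 fold change of 0.47 (SE 0.20, unadjusted p = 0.049, edgeR's quasi-likelihood test). Its close relative Egr4 was at 163.0, 159.5 and 189.1 CPM in HC rats 9, 10 and 11, against 166.9, 124.1 and 125.9 CPM in LC rats 12, 13 and 14, a log2 fold change of 0.30 (SE 0.12, unadjusted p = 0.040, same test). In both genes LC rat 12 reached the HC range while LC rats 13 and 14 lay below every HC rat. With 1 rat left out, Fos and Egr2 kept an unadjusted p under 0.05 only without HC rat 9 or LC rat 12, and Egr4 only when HC rat 9 or 10 or LC rat 12 was the one omitted. Leaving out HC rat 11 gave a log2 fold change of 0.30 for Egr2, and leaving out LC rat 12 gave 0.72. Egr1, the member with the highest level per exon length (mean 130 RPKM), was at 552.7, 595.8 and 694.3 CPM in HC rats 9, 10 and 11, against 620.4, 597.1 and 422.9 CPM in LC rats 12, 13 and 14. Its log2 fold change was 0.17 (SE 0.15, unadjusted p = 0.29, edgeR's quasi-likelihood test) and lay at 0.01 without LC rat 14, which was the lowest of the 6.

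The promoters of Egr2 and Egr4 are shown because both genes carry, close to the start, letters that activity-regulated factors read. Each run is the 250 bases before the RefSeq start on the build GRCr8, in lower case. Capitals mark the core letters of the CRE (TGACG or its reverse complement CGTCA), read by CREB, and in Egr2 also the CArG box, read by serum response factor.
Egr2 (chr20:21054442-21054691, minus strand): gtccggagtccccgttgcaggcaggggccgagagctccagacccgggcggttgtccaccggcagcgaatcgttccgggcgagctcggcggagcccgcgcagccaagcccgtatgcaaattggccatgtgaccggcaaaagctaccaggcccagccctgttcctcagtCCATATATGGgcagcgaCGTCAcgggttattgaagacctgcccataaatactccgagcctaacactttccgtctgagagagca
Egr4 (chr4:119607818-119608067, minus strand): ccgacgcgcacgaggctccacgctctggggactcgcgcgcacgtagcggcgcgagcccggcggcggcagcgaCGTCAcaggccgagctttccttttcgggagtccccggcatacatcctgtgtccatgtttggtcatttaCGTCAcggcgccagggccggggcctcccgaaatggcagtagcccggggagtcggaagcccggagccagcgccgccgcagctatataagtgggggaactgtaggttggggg
Both strands were searched, and the marked letters do not overlap. The CArG box of Egr2 begins 83 bases before the start and its CRE letters 66 bases before it, and the CRE letters of Egr4 begin 178 and 110 bases before the start. RefSeq promoters were matched for 9 of the tested immediate early factors: 4 hold the CRE letters (Egr1, Egr2, Egr4 and Junb) and 2 a CArG box (Egr1 and Egr2), where 18.2% and 1.5% of all 33469 promoter windows of this length hold them. A match of letters is a description only.

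Junb, which encodes a Jun protein that dimerizes with Fos proteins, was at 217.9, 234.7 and 228.7 CPM in HC rats 9, 10 and 11, against 237.0, 176.3 and 180.1 CPM in LC rats 12, 13 and 14, with a log2 fold change of 0.20 (SE 0.11, unadjusted p = 0.11, edgeR's quasi-likelihood test). Npas4, a factor induced by calcium entry in neurons, was at 43.0, 67.5 and 58.2 CPM in HC rats 9, 10 and 11, against 53.1, 33.2 and 39.2 CPM in LC rats 12, 13 and 14, with a log2 fold change of 0.44 (SE 0.20, unadjusted p = 0.062, same test). In both genes LC rat 12 lay above the lowest HC rat. The remaining members, Fosl2, Jun, Egr3, Ier5, Atf3, Klf4 and Klf10, had log2 fold changes of 0.03 to 0.55, none with an unadjusted p under 0.05.

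**Figure D1:**
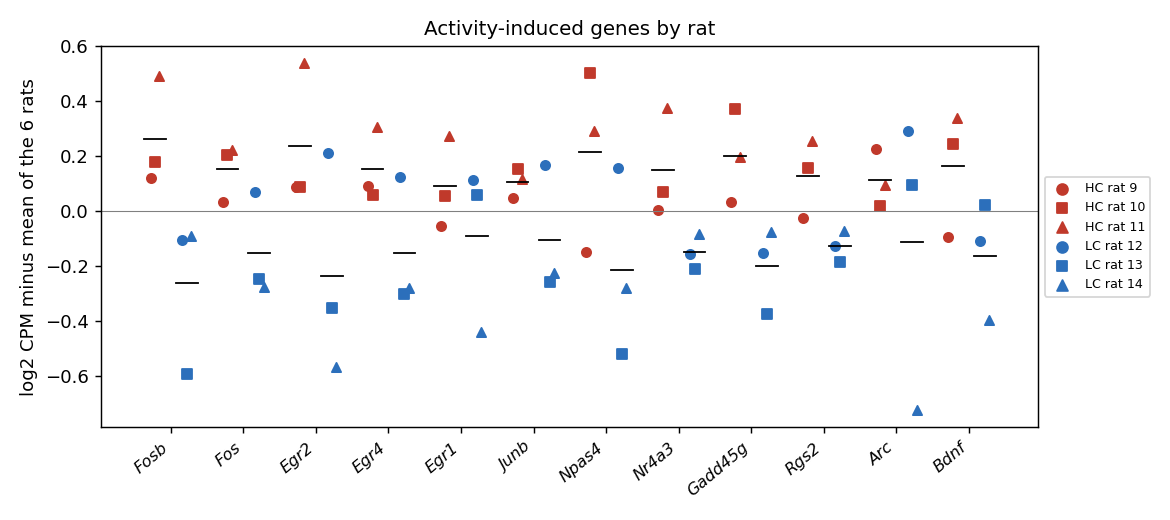
Log2 CPM of 12 activity-induced genes in each cue-tested rat, minus the mean of the 6 rats for that gene (vertical axis, log2 units). HC rats are red and stand left of the LC rats, in blue, and black lines are group means. The means of the HC rats lie above those of the LC rats for all 12 genes, without overlap for Fosb, Nr4a3, Gadd45g and Rgs2 only, and LC rat 12 lies above the lowest HC rat in each of the others except Bdnf.

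The list of activity-induced effectors, in which the Nr4a nuclear receptors were placed, had the same direction. Of 16 tested members, 15 had a log2 fold change above 0 (median 0.19), 3 had an unadjusted p under 0.05 and no overlap, all higher in HC (backgrounds 1.55% and 4.16%), and the exception was Gadd45b at −0.04. Leaving out LC rat 14, where the list was lowest, moved the median to 0.07.

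Nr4a3, an orphan nuclear receptor, was at 102.7, 107.4 and 132.8 CPM in HC rats 9, 10 and 11, against 91.8, 88.5 and 96.5 CPM in LC rats 12, 13 and 14. All HC rats lay above all LC rats. The log2 fold change was 0.31 (SE 0.10, unadjusted p = 0.014, edgeR's quasi-likelihood test), with p under 0.05 whichever rat was left out, and it was 0.185 without HC rat 11.

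Gadd45g, a small stress-inducible protein of the GADD45 family, was at 17.2, 21.7 and 19.3 CPM in HC rats 9, 10 and 11, against 15.1, 13.0 and 15.9 CPM in LC rats 12, 13 and 14, a log2 fold change of 0.40 (SE 0.12, unadjusted p = 0.011, edgeR's quasi-likelihood test). Rgs2, which speeds the shut-off of G proteins, was at 37.7, 42.9 and 45.8 CPM in HC rats 9, 10 and 11, against 35.2, 33.8 and 36.6 CPM in LC rats 12, 13 and 14, a log2 fold change of 0.26 (SE 0.08, unadjusted p = 0.014, same test). In each gene the lowest HC rat was HC rat 9 and still lay above all LC rats, and Rgs2 lost the threshold without HC rat 11.

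Arc, which encodes a synaptic protein and is the effector with the highest level per exon length (mean 82.5 RPKM), was at 407.0, 352.1 and 371.5 CPM in HC rats 9, 10 and 11, against 425.6, 371.6 and 210.3 CPM in LC rats 12, 13 and 14. Its log2 fold change of 0.17 (SE 0.22, unadjusted p = 0.47, edgeR's quasi-likelihood test) rested on LC rat 14 and was −0.08 without that rat. Nr4a1, a nuclear receptor like Nr4a3, was at 221.6, 196.7 and 231.6 CPM in HC rats 9, 10 and 11, against 212.2, 217.3 and 138.5 CPM in LC rats 12, 13 and 14, and its log2 fold change of 0.20 was 0.01 without LC rat 14. Homer1, a postsynaptic scaffold, was at 90.1, 100.9 and 124.1 CPM in HC rats 9, 10 and 11, against 101.6, 98.9 and 87.6 CPM in LC rats 12, 13 and 14 (log2 fold change 0.13, SE 0.12, unadjusted p = 0.29, edgeR's quasi-likelihood test). For these 3 abundant effectors the groups overlapped.

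Among 9 genes of the later activity response, 7 had a log2 fold change above 0 (median 0.17), and 1 had an unadjusted p under 0.05, higher in HC (backgrounds 50.5% and 1.55%). That gene was Bdnf, at 38.8, 49.0 and 52.5 CPM in HC rats 9, 10 and 11, against 38.4, 42.0 and 31.4 CPM in LC rats 12, 13 and 14. The HC rats overlapped with LC rat 13, which lay above HC rat 9, and the log2 fold change was 0.33 (SE 0.14, unadjusted p = 0.046, edgeR's quasi-likelihood test). It kept an unadjusted p under 0.05 only without HC rat 9 or LC rat 13, and was 0.21 without LC rat 14. Crem, a modulator of the cAMP response, was at 17.3, 14.8 and 16.0 CPM in HC rats 9, 10 and 11, against 13.8, 13.4 and 14.4 CPM in LC rats 12, 13 and 14, without overlap (log2 fold change 0.21, SE 0.09, unadjusted p = 0.053, same test). Ntrk2, the Bdnf receptor, was at 868.5 to 892.2 CPM in HC and 902.4 to 927.2 CPM in LC rats, a log2 fold change of −0.06 (SE 0.05), also without overlap.

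Reads in introns, which come mostly from RNA not yet spliced and which the exon counts do not include, gave a separate readout of the same genes. This readout was added after the exon values had been seen, and 3.63% of 12721 genes had an unadjusted p under 0.05 in it. For Nr4a3 the intron level was 118.6, 122.2 and 135.1 CPM in HC rats 9, 10 and 11, against 85.6, 76.4 and 89.6 CPM in LC rats 12, 13 and 14. These groups stood further apart than in exons, with a log2 fold change of 0.58 (SE 0.12, unadjusted p = 1.5e-04, edgeR's quasi-likelihood test). Fosl2, a Fos family member, had an intron log2 fold change of 0.30 (SE 0.12, unadjusted p = 0.022, same test) and Homer1 of 0.34 (SE 0.15, unadjusted p = 0.038, same test). The Homer1 groups overlapped in introns, with LC rat 12 at 1365 CPM and HC rat 10 at 1314 CPM. Fos went the other way in introns, at 15.7, 16.1 and 13.2 CPM in HC rats 9, 10 and 11, against 24.4, 17.3 and 18.4 CPM in LC rats 12, 13 and 14, a log2 fold change of −0.39 (SE 0.21, unadjusted p = 0.087), on 29 to 67 intron reads per library. Fosb introns did not separate the groups, with a log2 fold change of 0.20 (SE 0.31, unadjusted p = 0.53). Egr1 and Arc lay below 0 in introns, at −0.20 (SE 0.30) and −0.28 (SE 0.29). Over the 9 immediate early factors and 15 effectors tested in introns, the medians were 0.19 and 0.15.

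Levels in the NoCue-marked rats put these values in scale. On a common scaling over all 10 libraries, Fosb was at 80.0, 83.2 and 103.4 CPM in the cue-tested HC rats 9, 10 and 11 and 68.4, 48.8 and 68.8 CPM in the cue-tested LC rats 12, 13 and 14, against 30.4 and 37.2 CPM in NoCue-marked HC rats 15 and 16 and 52.5 and 26.5 CPM in NoCue-marked LC rats 2 and 4. The 14 immediate early factors summed to 1640 to 1952 CPM in cue-tested HC and 1303 to 1741 CPM in cue-tested LC rats, against 1085 and 1191 CPM in NoCue-marked HC rats 15 and 16 and 1779 and 1073 CPM in NoCue-marked LC rats 2 and 4. LC rat 2 was thus the only NoCue-marked rat inside the range of the cue-tested ones. Its library stood apart from the other 9, with 28.4% of exon reads from mitochondrially encoded genes.

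Chaperones and cell stress genes held further members that were higher in HC at an unadjusted p under 0.05. Hspa5, the main chaperone of the endoplasmic reticulum, was at 285.6, 359.9 and 345.8 CPM in HC rats 9, 10 and 11, against 287.5, 260.8 and 264.2 CPM in LC rats 12, 13 and 14. Only LC rat 12 reached the HC range, and the log2 fold change was 0.29 (SE 0.09, unadjusted p = 0.014, edgeR's quasi-likelihood test). Hspb1, a small heat shock protein, was at 9.65, 9.02 and 7.98 CPM in HC rats 9, 10 and 11, against 7.56, 7.01 and 6.13 CPM in LC rats 12, 13 and 14, without overlap (log2 fold change 0.37, SE 0.14, unadjusted p = 0.026, same test). These were 2 of the 10 tested heat shock genes (background 1.55% with HC higher), whose median was 0.12. Cdkn1a, an inhibitor of the cell cycle on the glucocorticoid response list, was at 14.0, 15.8 and 18.3 CPM in HC rats 9, 10 and 11, against 14.3, 10.7 and 10.2 CPM in LC rats 12, 13 and 14 (log2 fold change 0.47, SE 0.16, unadjusted p = 0.017, same test). It was the only one of 14 glucocorticoid response genes with an unadjusted p under 0.05 (background 2.95% in either direction), and that list's median was 0.02. With 1 rat left out, Hspa5 lost the threshold without HC rat 10 or 11, Hspb1 without HC rat 9 or 10 or LC rat 14, and Cdkn1a without HC rat 11 or LC rat 13 or 14.

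Genes encoded in the mitochondrial genome lay on the lower side in HC. This group was chosen after its values were seen. All 13 had a log2 fold change below 0, where 49.5% of all genes did. They ranged from −0.44 (ATP8) to −0.21 (COX1) around a median of −0.32, 10 had an unadjusted p under 0.05 (lower in HC; background 1.4%) and 8 had no overlap (background 4.34%). The number with an unadjusted p under 0.05 was 6 to 12 when any 1 rat was left out. All 13 lie on the same circular genome and are cut from long shared precursors, so they are not independent of each other.

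COX1, a core subunit of cytochrome c oxidase and the most abundant of them per exon length, was at 28755, 27966 and 25494 CPM in HC rats 9, 10 and 11, against 31439, 33731 and 30027 CPM in LC rats 12, 13 and 14. ATP6, a subunit of ATP synthase, was at 8906, 9831 and 7855 CPM in HC rats 9, 10 and 11, against 11609, 11005 and 11475 CPM in LC rats 12, 13 and 14. COX3, another oxidase subunit, was at 9474, 9069 and 8200 CPM in HC rats 9, 10 and 11, against 10787, 11080 and 10175 CPM in LC rats 12, 13 and 14. None of the 3 overlapped, HC rat 11 was the lowest in each, and the log2 fold changes were −0.21 (SE 0.08), −0.36 (SE 0.09) and −0.26 (SE 0.08). As a share of exon reads, mitochondrially encoded genes took 8.82, 8.99 and 7.65% in HC rats 9, 10 and 11, against 10.1, 10.0 and 10.1% in LC rats 12, 13 and 14.

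**Figure D2:**
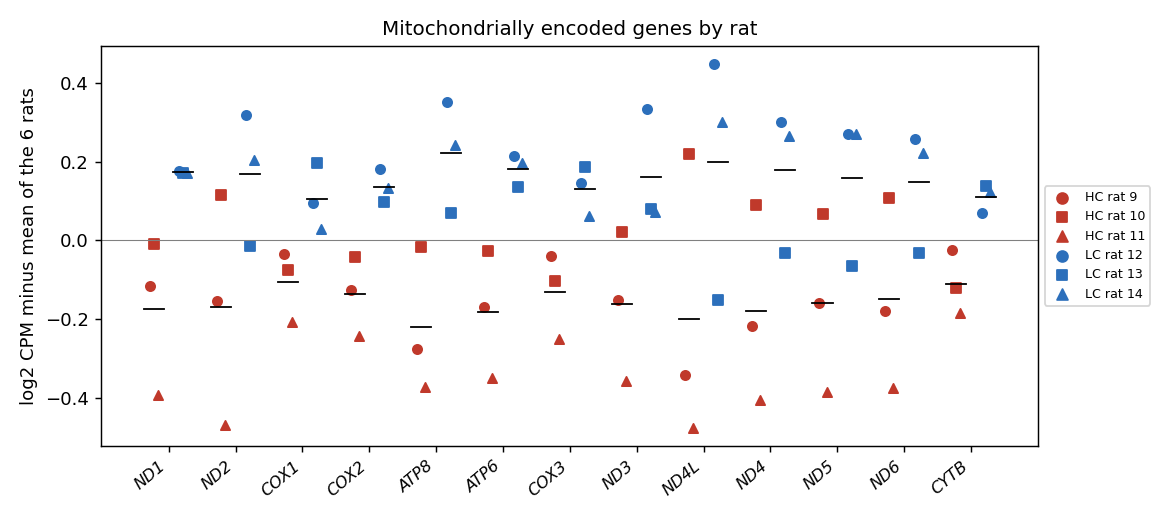
Log2 CPM of the 13 mitochondrially encoded genes in each cue-tested rat, minus the mean of the 6 rats (vertical axis, log2 units). HC rats are red and stand left of the LC rats, in blue, with black lines at group means. All 13 HC means lie below the LC means, and HC rat 11 is the lowest of the 6 rats in every gene.

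Nuclear genes for the same machinery and for cytosolic ribosomes, also grouped after values were seen, had smaller shifts in the same direction. The 87 tested nuclear genes of the respiratory chain and ATP synthase were picked by symbol and include assembly factors (Ndufaf genes). Of these 87 genes, 75 had a log2 fold change below 0 (median −0.07, background 49.5%). An unadjusted p under 0.05 was found for 8 with HC lower and 0 with HC higher (backgrounds 1.4% and 1.55%), and no overlap for 22 with HC lower and 1 with HC higher (backgrounds 4.34% and 4.16%). Of 75 cytosolic ribosomal protein genes, 68 had a log2 fold change below 0 (median −0.09) and 8 had an unadjusted p under 0.05, all lower in HC (backgrounds 49.5% and 1.4%). Rps12, of the small ribosomal subunit, was at 89.5, 82.8 and 77.4 CPM in HC rats 9, 10 and 11, against 101.1, 92.4 and 101.9 CPM in LC rats 12, 13 and 14, although 19.2% of its reads matched 1 place only. With library size alone as scaling the ribosomal and respiratory chain medians were −0.06 and −0.04, and the mitochondrial median −0.29.

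Many transcripts of these groups are short, and exon length moved with the comparison over all genes. In the fifth of genes with the shortest exon length (138 to 1416 bases) the median log2 fold change was −0.04 and 90 of 2872 had an unadjusted p under 0.05 and were lower in HC, against 27 that were higher. In the fifth with the longest (4084 to 28192 bases) the median was 0.04, with 15 of 2868 lower and 96 higher. The first median lay between −0.05 and −0.03 and the last between 0.03 and 0.04 when any 1 rat was left out. The part of exon length in the results above was not tested.

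Interferon response genes had the largest median of all 35 lists, −1.30 over 14 tested members, and it came from LC rat 13. That rat was the highest of the 6 in 13 of the 14 genes, and more than 2 times above every other rat in 9 of them. Without LC rat 13 the list median was −0.07. Interferons are secreted in response to viral nucleic acids, and cells that sense them switch on genes whose products block viral replication.

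Mx1, a GTPase that blocks viruses, was at 0.79, 1.11 and 1.27 CPM in HC rats 9, 10 and 11, against 1.02, 17.0 and 1.03 CPM in LC rats 12, 13 and 14. Rsad2, which encodes the antiviral enzyme viperin, was at 1.53, 1.62 and 1.96 CPM in HC rats 9, 10 and 11, against 1.70, 23.99 and 1.63 CPM in LC rats 12, 13 and 14. In both genes the other LC rats lay within the HC range. The log2 fold changes were −2.62 for Mx1 (SE 1.09, unadjusted p = 0.043) and −2.44 for Rsad2 (SE 1.02, unadjusted p = 0.044) by edgeR's quasi-likelihood test, and without LC rat 13 they were 0.05 and 0.04.

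Ifit3, a protein that binds viral RNA in complexes, was at 1.36, 2.04 and 0.83 CPM in HC rats 9, 10 and 11, against 3.14, 15.9 and 0.69 CPM in LC rats 12, 13 and 14 (log2 fold change −2.30, SE 0.99, unadjusted p = 0.048, and −0.38 without LC rat 13). Oas1a, a sensor that makes oligoadenylate on double-stranded RNA, was at 0.57, 0.43 and 0.29 CPM in HC rats 9, 10 and 11, against 0.76, 6.23 and 0.94 CPM in LC rats 12, 13 and 14. Mx2, a relative of Mx1, was at 9.02, 8.17 and 8.67 CPM in HC rats 9, 10 and 11, against 9.17, 41.1 and 12.2 CPM in LC rats 12, 13 and 14. Oas1a and Mx2 did not overlap between the groups even apart from LC rat 13, but without it their log2 fold changes were −1.01 and −0.32 with unadjusted p = 0.067 and unadjusted p = 0.077 (edgeR's quasi-likelihood test). Introns gave the same picture of LC rat 13: Usp18, which removes ISG15 from proteins, had 180 intron reads there, 3 to 17 in the HC rats and 7 and 12 in LC rats 12 and 14.

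The promoters of Oas1a, Ifit3 and Rsad2 are shown because genes of this list carry the response element read by interferon-activated factors. Capitals mark GAAANNGAAA or its reverse complement TTTCNNTTTC, searched on both strands of the 250 bases before the RefSeq start on GRCr8, and in Oas1a they mark 2 overlapping matches.
Oas1a (chr12:41330216-41330465, plus strand): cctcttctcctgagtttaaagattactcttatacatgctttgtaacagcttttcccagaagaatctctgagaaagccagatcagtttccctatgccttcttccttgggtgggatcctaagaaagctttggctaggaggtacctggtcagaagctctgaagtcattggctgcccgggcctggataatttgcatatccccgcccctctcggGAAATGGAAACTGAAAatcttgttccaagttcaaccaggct
Ifit3 (chr1:241527076-241527325, plus strand): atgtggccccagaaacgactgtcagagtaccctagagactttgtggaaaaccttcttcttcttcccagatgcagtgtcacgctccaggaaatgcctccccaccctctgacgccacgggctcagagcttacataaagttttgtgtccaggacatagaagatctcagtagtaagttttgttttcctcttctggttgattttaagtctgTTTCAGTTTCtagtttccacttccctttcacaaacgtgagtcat
Rsad2 (chr6:48788121-48788370, minus strand): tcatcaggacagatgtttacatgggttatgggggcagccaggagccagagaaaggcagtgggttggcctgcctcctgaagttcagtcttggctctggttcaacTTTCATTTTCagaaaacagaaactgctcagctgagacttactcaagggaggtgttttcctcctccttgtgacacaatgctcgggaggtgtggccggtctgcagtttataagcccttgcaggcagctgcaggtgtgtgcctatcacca
The matches begin 41, 44 and 147 bases before the starts of Oas1a, Ifit3 and Rsad2. RefSeq promoters were matched for 10 listed interferon genes, and 6 of these hold the letters (Bst2, Ifi27, Ifit3, Irf7, Oas1a and Rsad2), as do 3.41% of all 33469 windows. Bst2, a surface protein that tethers viruses, holds them too and was at 5.11 CPM in LC rat 13, below the highest of the other rats (6.02 CPM).

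Ifi27, an interferon-inducible membrane protein and the list's highest member per exon length (mean 39.1 RPKM), was the exception. It was at 42.1, 37.4 and 42.6 CPM in HC rats 9, 10 and 11, against 45.5, 50.9 and 48.7 CPM in LC rats 12, 13 and 14. The groups did not overlap, all LC rats lay near each other, and the log2 fold change was −0.25 (SE 0.08, unadjusted p = 0.010, edgeR's quasi-likelihood test) with LC rat 13 and −0.21 without it. Stat2 and Irf9, which carry the interferon signal to the nucleus and are the next 2 members per exon length, had log2 fold changes of −0.09 and −0.33, with groups that overlapped.

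**Figure D3:**
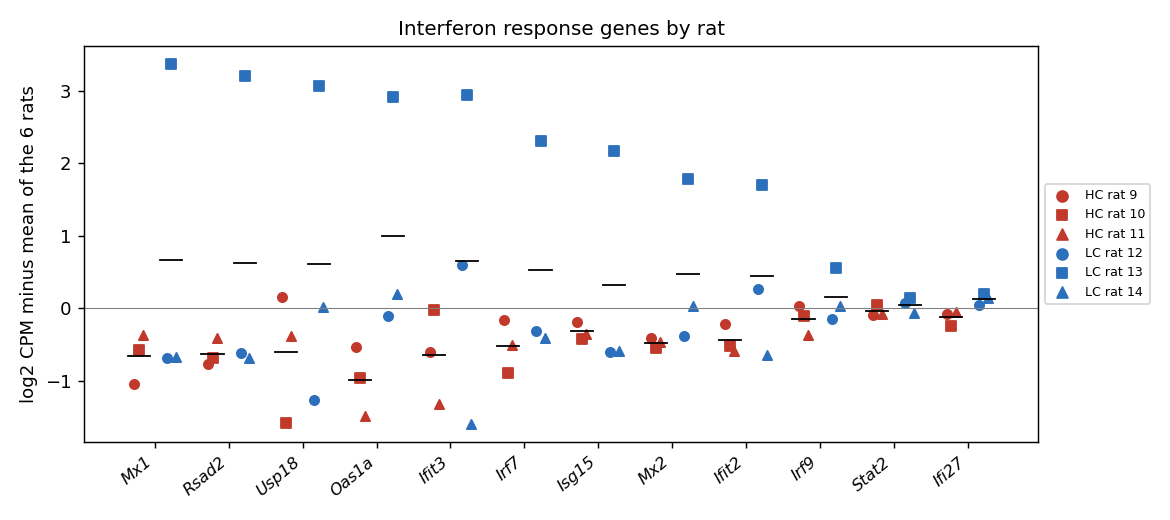
Log2 CPM of 12 interferon response genes in each cue-tested rat, minus the mean of the 6 rats (vertical axis, log2 units). HC rats are red and stand left of the LC rats, in blue, with black lines at group means. LC rat 13 (blue squares) lies far above the other 5 rats from Mx1 to Ifit2 and close to them for Stat2 and Ifi27.

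Among cell type markers, the microglia list leaned lower in HC. All 11 tested members had a log2 fold change below 0 (median −0.16), and 1 had an unadjusted p under 0.05 (backgrounds 49.5% and 1.4%). That gene, Trem2, a lipid receptor of microglia, was at 6.58, 5.87 and 6.95 CPM in HC rats 9, 10 and 11, against 9.25, 7.71 and 8.14 CPM in LC rats 12, 13 and 14. The groups did not overlap, and the log2 fold change was −0.36 (SE 0.13, unadjusted p = 0.027, edgeR's quasi-likelihood test). Without HC rat 10 or LC rat 12 it lost the threshold. In introns the log2 fold change was −0.47 (SE 0.21, unadjusted p = 0.045). Ctss, a lysosomal protease and the highest member per exon length (mean 70.5 RPKM), was at 84.0 to 103.0 CPM in HC and 100.4 to 107.6 CPM in LC rats, and C1qa, a complement subunit, had a log2 fold change of −0.20 with groups that overlapped. The 11 markers summed to 409 to 431 CPM in HC and 433 to 483 CPM in LC rats. Without LC rat 14 the list median was −0.07.

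Astrocyte genes had 10 of 12 log2 fold changes below 0 (median −0.08; background 49.5%). S100b, a calcium-binding protein of astrocytes and the highest of them per exon length (mean 388 RPKM), was at 802.5, 729.0 and 740.3 CPM in HC rats 9, 10 and 11, against 878.3, 923.1 and 854.8 CPM in LC rats 12, 13 and 14, without overlap (log2 fold change −0.23, SE 0.06, unadjusted p = 0.0071, edgeR's quasi-likelihood test). S100b was the only gene of the 12 with an unadjusted p under 0.05 or without overlap (backgrounds 1.4% and 4.34% with HC lower). Log2 fold changes were −0.13 for Glul (glutamine synthetase) and −0.15 for Aldoc (aldolase C).

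Meningeal fibroblast genes had 11 of 11 log2 fold changes above 0 (median 0.47), but HC rat 9 alone was high. Summed over the 11 genes the level was 684, 199 and 203 CPM in HC rats 9, 10 and 11, against 177, 321 and 266 CPM in LC rats 12, 13 and 14, and the median was −0.35 without HC rat 9. Igf2, a growth factor of the meninges, was at 241.9, 68.8 and 58.7 CPM in HC rats 9, 10 and 11, against 55.9, 96.4 and 96.9 CPM in LC rats 12, 13 and 14. The next 2 per exon length, Bgn and Col1a2, also turned sign without HC rat 9. Dcn, which encodes the matrix proteoglycan decorin, differed from its list: at 7.89, 7.83 and 8.42 CPM in HC rats 9, 10 and 11, against 6.71, 5.15 and 5.70 CPM in LC rats 12, 13 and 14, it had no overlap and a log2 fold change of 0.47 (SE 0.14, unadjusted p = 0.0097, edgeR's quasi-likelihood test) that kept p under 0.05 whichever rat was left out.

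Deep layer neuron genes had 9 of 9 log2 fold changes above 0 (median 0.25), none with an unadjusted p under 0.05, and here LC rat 13 was low. Ntsr1, a neurotensin receptor of layer 6 neurons, was at 8.51, 7.66 and 7.54 CPM in HC rats 9, 10 and 11, against 3.14, 1.43 and 7.80 CPM in LC rats 12, 13 and 14. Syt6, a synaptotagmin of the same layer, was at 34.3, 31.6 and 27.2 CPM in HC rats 9, 10 and 11, against 21.7, 13.7 and 31.4 CPM in LC rats 12, 13 and 14. In both genes LC rat 14 lay with the HC rats, and without LC rat 13 the list median was 0.02. Of the reads of Ntsr1, 1.86% were unique. Tbr1, Fezf2 and Etv1, its most abundant members per exon length, had log2 fold changes of 0.08, 0.25 and 0.03.

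Receptor and synapse lists were close to 0. Across the serotonin, dopamine, opioid, endocannabinoid, ionotropic and metabotropic glutamate and GABA receptor lists, synaptic vesicle release and synaptic adhesion, medians lay between −0.05 and 0.13. In these 9 lists, of 7 to 24 tested genes each, 1 gene had an unadjusted p under 0.05 (background 2.95% in either direction). It was Cplx2, which encodes complexin, a clamp on vesicle fusion, at 641.0, 573.0 and 636.2 CPM in HC rats 9, 10 and 11, against 722.2, 824.5 and 634.6 CPM in LC rats 12, 13 and 14 (log2 fold change −0.24, SE 0.10, unadjusted p = 0.043, edgeR's quasi-likelihood test). LC rat 14 lay inside the HC range. Cplx2 kept the threshold only without LC rat 14, and its log2 fold change was −0.14 without LC rat 13. The circadian clock, BBSome (a cilium cargo complex) and striatal neuron medians were 0.01, 0.01 and 0.00. The signs of these 3 medians, and of the endocannabinoid and GABA receptor medians (both −0.01), change with the scaling. Genes of MHC class I and II, which present peptides to T cells, had 12 of 19 log2 fold changes above 0 (background 50.5%). Their median was 0.16, but −0.08 without LC rat 14 and −0.02 in unique exon reads.

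**Figure D4:**
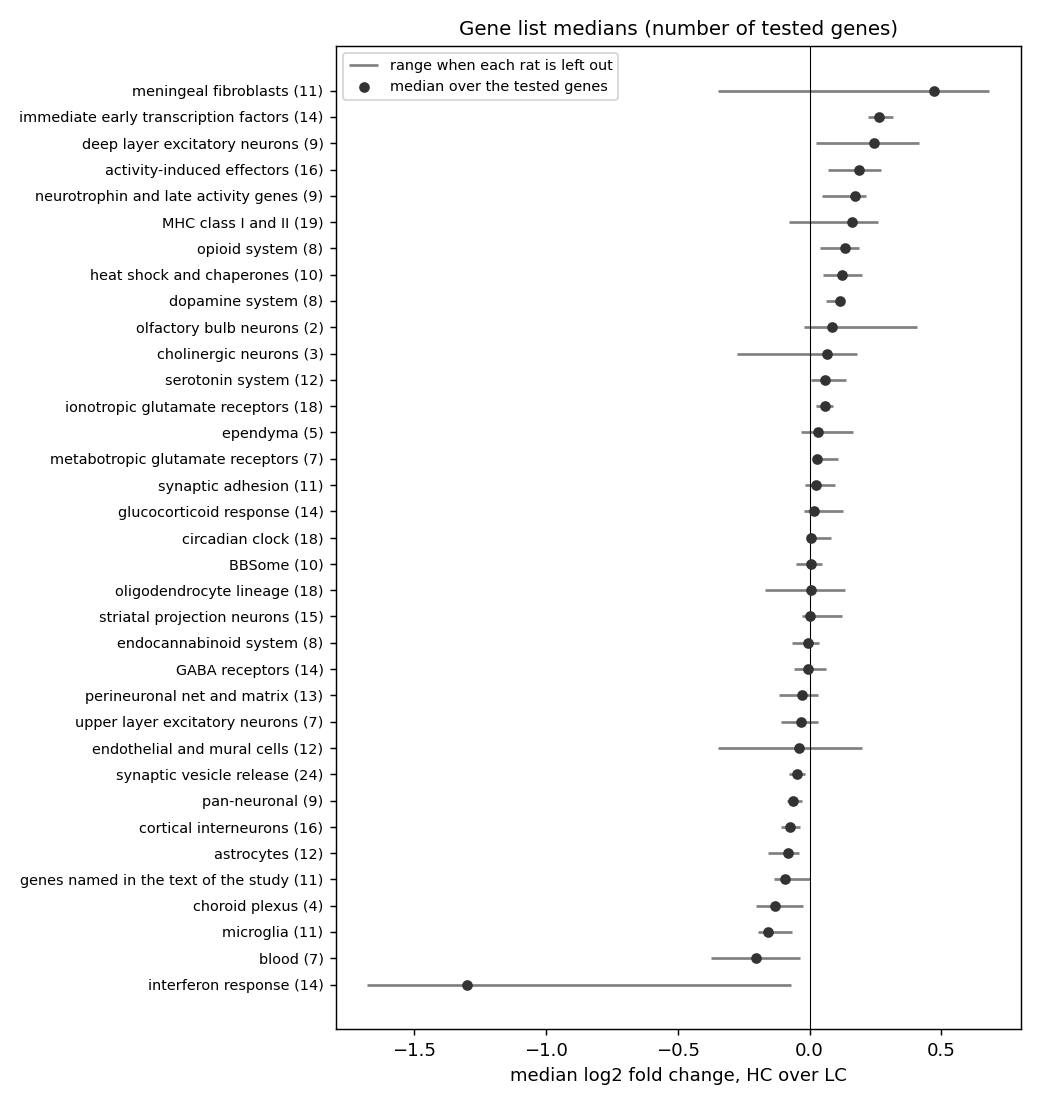
Median log2 fold change of HC over LC rats for each of the 35 gene lists (points, horizontal axis), with the number of tested genes in brackets and the range of the median when each rat is left out (lines). The immediate early factors stay between 0.22 and 0.32, whereas the interferon line runs from −1.68 to −0.07 and the meningeal fibroblast line from −0.35 to 0.68.

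Of 14340 genes tested, 21 met the criterion of the study, averaged 50 reads or more and had no overlap, 10 higher and 11 lower in HC. No overlap was part of this choice, so the separation of the groups in these 21 genes follows from how they were picked. Ccn1, a matrix protein induced by growth factors, was at 3.86, 5.28 and 5.49 CPM in HC rats 9, 10 and 11, against 2.97, 1.69 and 2.87 CPM in LC rats 12, 13 and 14 (log2 fold change 0.97, SE 0.27, unadjusted p = 0.0063, edgeR's quasi-likelihood test). Cybb, a subunit of the phagocyte NADPH oxidase, was at 3.52, 3.07 and 4.11 CPM in HC rats 9, 10 and 11, against 2.55, 1.60 and 2.23 CPM in LC rats 12, 13 and 14 (log2 fold change 0.77, SE 0.24). Tnfrsf25, a death domain receptor, Slc18a1, a vesicular monoamine transporter, and Fibin, a secreted protein, had log2 fold changes of 0.60, 0.67 and 0.68. AC120712.4, AABR07002893.1 and LOC108348080, which have no gene symbol of known role, stood at 0.79, 0.81 and 1.41. Ccn1 and Cybb passed the unadjusted threshold in at least 5 of the 6 fits that leave out a rat, and Fibin in 2, with 0.34 without HC rat 9.

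On the lower side, Hba-a3, a haemoglobin alpha gene, was at 2.27, 1.28 and 2.01 CPM in HC rats 9, 10 and 11, against 4.16, 5.59 and 2.40 CPM in LC rats 12, 13 and 14 (log2 fold change −1.10, SE 0.35, unadjusted p = 0.014, edgeR's quasi-likelihood test). The blood marker list summed to 301 to 363 CPM in HC and 290 to 471 CPM in LC rats, and the part of blood in this gene's value was not tested. Havcr2 and Cd180, immune receptors of myeloid cells, had log2 fold changes of −0.61 and −0.62. Trim21, an intracellular antibody receptor, was highest in LC rat 13 (9.18 CPM against 4.54 and 6.11 CPM in the other LC rats), with −0.82 over all rats and −0.48 without LC rat 13. Frzb, a secreted Wnt antagonist, Trappc6a, a vesicle tethering subunit, Tmem215, Zfp697 and Tipinl1 lay between −0.74 and −0.59, with Tmem215 at −0.42 without LC rat 13. Frzb passed the unadjusted threshold in 2 of the 6 fits that leave out a rat. Mx2 and Cers1 complete the set.

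Several of these transcripts rest on reads that match more than 1 place in the genome. Fewer than 10% of reads were unique for 22 of the 74 genes at the criterion (29.7%) and for 7 of the 21 genes without overlap, against 5.45% of all genes tested, so which copy their reads come from is uncertain. AABR07073045.1 (Rnor_6.0 chr4:120413653-120414118) had 323, 24 and 375 exon reads in HC rats 9, 10 and 11, against 0, 4 and 17 reads in LC rats 12, 13 and 14, and 0 of them were unique. LOC108348108 (chr20:2699712-2701815) was at 21.0, 30.7 and 20.6 CPM in HC rats 9, 10 and 11, against 13.6, 9.96 and 7.50 CPM in LC rats 12, 13 and 14, again with 0 unique reads (log2 fold change 1.24, SE 0.23, unadjusted p = 7.0e-04, edgeR's quasi-likelihood test). Cers1, a ceramide synthase (chr16:20845576-20860789), had 0, 136 and 388 exon reads in HC rats 9, 10 and 11, against 436, 716 and 1584 reads in LC rats 12, 13 and 14, of which 0.675% over all rats were unique.

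A pair of genes outside the naming rule, picked after their values were seen, had the smallest p-values on the lower side. Nol8, a nucleolar protein (chr17:14565794-14589154), had 0, 2 and 0 exon reads in HC rats 9, 10 and 11, against 52, 36 and 62 reads in LC rats 12, 13 and 14. AABR07027088.1 (chr17:14087182-14091766) had 8, 4 and 0 reads in HC rats 9, 10 and 11, against 32, 55 and 65 reads in LC rats 12, 13 and 14. They and LOC108348108 were the 3 adjusted calls of DESeq2 (adjusted p = 6.9e-04, 9.7e-04 and 6.9e-04). Over all rats 1.32% of the reads of Nol8 and 0 reads of AABR07027088.1 were unique. Both lie on chromosome 17. On the scaling over all 10 libraries, Nol8 was at 4.22 and 1.48 CPM in NoCue-marked HC rats 15 and 16. It was at 4.42 and 0 CPM in NoCue-marked LC rats 2 and 4. AABR07027088.1 was at 4.26 and 2.70 CPM in those HC rats and at 3.08 and 4.19 CPM in those LC rats. The near absence in the cue-tested HC rats was thus not seen in the NoCue-marked HC rats.

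Lyz2, lysozyme of myeloid cells and likewise picked after values were seen, was at 54.1, 52.0 and 55.1 CPM in HC rats 9, 10 and 11, against 43.4, 38.8 and 43.9 CPM in LC rats 12, 13 and 14 (log2 fold change 0.36, SE 0.07, unadjusted p = 7.5e-04, edgeR's quasi-likelihood test), with 32.1% of its reads unique. In unique reads alone its log2 fold change was 0.31 (unadjusted p = 0.020). Its direction is opposite to that of the microglia markers. Srrm4, a neuronal splicing factor with 100% unique reads, was at 29.4, 29.2 and 28.8 CPM in HC rats 9, 10 and 11, against 22.1, 24.5 and 23.5 CPM in LC rats 12, 13 and 14 (log2 fold change 0.31, SE 0.07, unadjusted p = 0.0021, same test). In introns Srrm4 had a log2 fold change of 0.37 (SE 0.11, unadjusted p = 0.0051). Ahi1, a cilium protein, was at 134 to 144 CPM in HC and 111 to 126 CPM in LC rats.

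Of the 12 genes that the text of the study names, 11 were tested in the cue-tested rats and 1, Drd3, had too few reads. Cend1, a neuronal differentiation protein, was the only one with an unadjusted p under 0.05 (background 2.95% in either direction). It was at 8.68, 3.49 and 10.1 CPM in HC rats 9, 10 and 11, against 5.43, 2.77 and 1.46 CPM in LC rats 12, 13 and 14, with overlap between the groups (log2 fold change 1.31, SE 0.50, unadjusted p = 0.032, edgeR's quasi-likelihood test). It kept the threshold only without HC rat 10 or LC rat 12, and none of its reads matched 1 place only. No overlap was found for 1 of the 11, Fgf14 (background 8.51% in either direction). Fgf14, a partner of sodium channels, was at 5.90, 6.98 and 7.35 CPM in HC rats 9, 10 and 11, against 9.85, 8.01 and 7.80 CPM in LC rats 12, 13 and 14, without overlap (log2 fold change −0.33, SE 0.15, unadjusted p = 0.055, same test).

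For the receptor and signalling genes of that set the cue-tested groups overlapped. Drd2, the dopamine D2 receptor, was at 5.96, 9.88 and 8.28 CPM in HC rats 9, 10 and 11, against 6.62, 3.81 and 7.33 CPM in LC rats 12, 13 and 14 (log2 fold change 0.44, SE 0.28). Htr2c, the serotonin 2C receptor, was at 36.2, 51.0 and 44.8 CPM in HC rats 9, 10 and 11, against 47.1, 16.7 and 57.6 CPM in LC rats 12, 13 and 14 (log2 fold change 0.12, SE 0.38, and −0.27 without LC rat 13). LC rat 13 was the lowest rat in both, as it was for deep layer genes. Log2 fold changes were −0.12 (SE 0.19) for Adora2a, an adenosine receptor, −0.11 (SE 0.19) for Penk, the enkephalin precursor, −0.03 (SE 0.06) for Ppp1r1b, which encodes DARPP-32, −0.09 (SE 0.10) for Snap25, a vesicle fusion protein, and −0.08 (SE 0.10) for Gng7, a G protein subunit. Tshr, the thyrotropin receptor, and Bbip1, a BBSome subunit, stood at −0.81 (SE 0.47) and −0.16 (SE 0.26) at mean counts of 29.2 and 26.2 reads.

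In the NoCue-marked rats the same contrast gave other values. Fitted over all 10 rats, the NoCue log2 fold change of HC over LC was −2.11 (SE 0.38) for Drd2 and −2.22 (SE 0.58) for Adora2a. It was −1.36 (SE 0.27) for Penk and −1.51 (SE 0.49) for Htr2c, with 2 rats in each group. For each of these genes LC rats 2 and 4 lay above HC rats 15 and 16, and LC rat 4 was highest. The Adora2a contrast, and with it the difference below, rested largely on that animal, which reached 28.8 CPM on the scaling over all 10 libraries. LC rat 2 had only 5.48 CPM of Adora2a, HC rat 15 had 3.71 and HC rat 16 had 3.74. The difference between the contrasts, Cue minus NoCue, was 2.56 (SE 0.49, unadjusted p = 4.4e-04) for Drd2, 2.09 (SE 0.74, unadjusted p = 0.019) for Adora2a, 1.25 (SE 0.34, unadjusted p = 0.0048) for Penk and 1.63 (SE 0.62, unadjusted p = 0.026) for Htr2c by edgeR's quasi-likelihood test. Over 14621 genes 0 of these differences had an adjusted p under 0.05 (smallest adjusted p = 0.38), 1920 (13.1%) had an unadjusted p under 0.05, and DESeq2 gave 10 adjusted calls, Drd2 among them (adjusted p = 0.0052).

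Drd2, Adora2a, Penk and Ppp1r1b are also markers of striatal projection neurons. On the scaling over all 10 libraries these markers summed to 425 to 463 CPM in cue-tested HC rats and 434 to 460 CPM in cue-tested LC rats, and to 432 and 455 CPM in NoCue-marked HC rats 16 and 15 against 583 and 1056 CPM in NoCue-marked LC rats 2 and 4. The cue-tested groups thus had level striatal marker sums while LC rat 4 stood more than 2 times above all 6 of them. Without LC rat 2, 3 differences had an adjusted p under 0.05 (Ppp1r1b, Adora2a and Rtkn), and without LC rat 4, when LC rat 2 alone stands for its group and is taken to vary like the others, 4941 did. The part of these markers and of LC rats 2 and 4 in the difference was not tested.

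**Figure D5:**
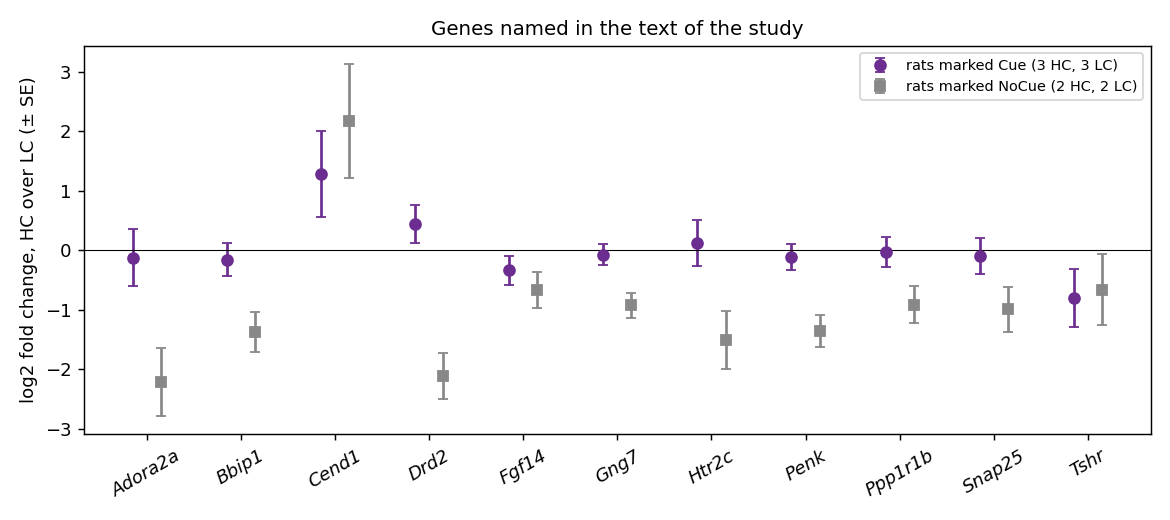
Log2 fold change of HC over LC rats (vertical axis, with SE) for the 11 tested genes that the text of the study names, in rats marked Cue (purple circles, 3 HC and 3 LC) and rats marked NoCue (grey squares, 2 HC and 2 LC), from the fit over all 10 rats. The purple points lie near 0 for Adora2a, Gng7, Htr2c, Penk, Ppp1r1b and Snap25, where the grey points lie below −0.9.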

How the data were processed

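RNA-seq of the mPFC from 6 cue-tested rats (3 HC, 3 LC) was analysed, with 4 further rats for the difference of contrasts. The authors mapped trimmed single-end reads of a stranded kit to Rnor_6.0 in the CLC Genomics Workbench and deposited, per gene and rat, read counts (exon, unique exon, gene and intron) and RPKM values, which scale exon reads by exon length and depth. The sources used here do not state whether strand was used in counting. A deposited table of the authors' own comparison (fold changes, p-values) was not used.

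Exon counts were filtered by filterByExpr, scaled by TMM and tested with the quasi-likelihood test of edgeR 4.0.16 (R 4.3.3) and p-values were adjusted over 14340 genes (Benjamini-Hochberg). SE is the size of the log2 fold change over the square root of F. The members, the 35 gene lists and the rule for named genes were chosen with earlier results of these data known. The rule took genes with an adjusted p under 0.05, genes at the criterion that averaged 50 reads or more without overlap, list members with an unadjusted p under 0.05, genes named in the text of the study, 6 activity genes, and the 3 most abundant members of described lists. Of the genes it took, 1 is not reported here. Of the listed symbols, 19 had no match. Fits were tested on simulated data. Alternatives used DESeq2 1.42.0, limma-voom (limma 3.58.1), other scalings, filters and read types, and each rat left out. No pair of the 6 libraries agreed within sampling noise (chi-square per gene 4.69 to 18.7, where noise gives 1). Promoter sequences came from RefSeq (GRCr8).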

Additional observations from a re-analysis of the deposited data

Results flagged for a closer look

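In groups of 5 rats over the whole series, 3 library measures lay far from the others of their phenotype, where chance flags about 1 in 20 groups. HC rat 9 had 15.9% of its gene reads in introns, against 13.4 to 13.9% in the other HC rats. LC rat 2, marked NoCue, had 28.4% of exon reads from mitochondrially encoded genes, where the rest of the LC rats had 10.0 to 12.0%, and 93.4% of its exon reads were unique, against 92.2 to 92.5%.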

How the results depend on the processing

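Counts of calls moved with the processing, and the cause was not tested except where fewer genes or rats entered. Adjusted calls in the cue-tested comparison were 0 in the main test, 3 with DESeq2 and 0 to 1 with a rat left out (LOC108348096 without HC rat 10, Sccpdh without LC rat 13). Genes with an unadjusted p under 0.05 were 423, against 256 with DESeq2 and 151 in the fit over all 10 rats, and 284 to 755 with a rat left out (755 without HC rat 9, 754 without LC rat 14). With library size alone 415 of 507 were higher in HC, and with upper quartile scaling 180 of 449. At the criterion 74 genes became 162 without a filter, 28 with a mean of at least 50 reads, 186 in intron reads (added after seeing the data) and 94 to 206 with a rat left out (142 without HC rat 9, 206 without LC rat 14). Of the 74, 4 were at the criterion in introns too. Genes without overlap were 1220, and 2246 to 3375 with a rat left out, where fewer rats overlap less often. For the difference of contrasts, adjusted calls were 0, against 10 with DESeq2 and 0 to 4941 with a rat left out (3 without LC rat 2, 4941 without LC rat 4).

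Of 74 named genes, 1164 of 1364 values kept direction and side of the unadjusted threshold, 149 lost it, 26 passed it and 25 turned sign. In introns the log2 fold change turned to −0.28 for Arc, 0.11 for C1qa, −0.20 for Egr1, −0.39 for Fos, 0.041 for Glul, 0.29 for Gng7, 0.22 for Havcr2, 0.052 for Penk, 0.28 for Ppp1r1b, −0.042 for Rgs2, −0.004 for Tbr1 and 0.12 for Tshr. With library size alone Ppp1r1b was at 0.005. With a rat left out, values ranged from −0.08 to 0.37 for Arc, −0.33 to 0.40 for Bgn, −0.36 to 0.84 for Col1a2, −0.076 to 0.119 for Etv1, −0.14 to 0.02 for Gng7, −0.01 to 0.23 for Homer1, −0.27 to 0.51 for Htr2c, −0.40 to 0.90 for Igf2, −3.14 to 0.048 for Mx1, −0.31 to 0.12 for Penk, −0.051 to 0.003 for Ppp1r1b and −2.95 to 0.044 for Rsad2. List medians moved by less than the spread between rats in 653 of 665 values. Depth limits genes at a few CPM, such as Bbip1 and Tshr. No paired analysis was possible because HC and LC rats share no replicate number.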
